A study of Mus musculus with 12 samples.

Results

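The mitochondrial ribosomal proteins are the nuclear-encoded proteins of the ribosome that works inside mitochondria. They were taken as the protein-coding genes whose symbol is Mrpl or Mrps followed by a digit, and 77 of the 43430 genes of the expression table met this rule, 48 of the large subunit (Mrpl) and 29 of the small subunit (Mrps) by symbol. The annotation holds 78 such genes, and Mrpl33 was not analysed here. The 77 genes lie on 17 chromosomes. A filter on low values, 1 RPKM or more in 4 or more libraries, left 76 to test, 47 of the large and 29 of the small subunit. Mrpl53 did not pass the filter. Its level was 0.337, 0.187, 0.198 and 0 RPKM in the naive libraries, and it reached 0.478 RPKM at most, in 24 h replicate 2.

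Polyadenylated RNA was sequenced from alveolar macrophages, phagocytes that live in the air spaces and clear surfactant and debris, in a mouse lung transplant model. There are 4 libraries from naive lungs, 4 from lungs 2 h after reperfusion (when blood again flows through the graft) and 4 from lungs 24 h after it. Male sex, an age of 14 weeks and the genotype Cx3cr1gfp/+B6, with a reporter in 1 copy of Cx3cr1, are given for all 12 libraries, the naive ones included. Allo stands in the titles of the reperfusion libraries without an explanation. Surgery, graft and time cannot be told apart in the comparisons with naive lungs. Whether each library is a different mouse is not stated, and the p-values thus rest on a spread among libraries that may be technical. Library totals ranged from 6112586 to 11997945 reads, and a tested member had between 39 and 798 reads in a library. RPKM is a read count scaled to the length of the gene and the size of the library.

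The mitochondrial ribosome translates the mRNAs of the mitochondrial genome, all of which encode subunits of the oxidative phosphorylation complexes. Its rRNAs come from the mitochondrial genome, whereas its proteins are made in the cytosol and imported, so that its assembly draws on both genomes. The small subunit reads the mRNA, and the large subunit joins amino acids and releases the chain through its exit tunnel into the inner membrane. Some of the proteins have bacterial homologues and others are found only in mitochondrial ribosomes. A few symbols depart from the structure: Mrps30 and Mrps18a sit in the large subunit, and Mrps36 is a component of the 2-oxoglutarate dehydrogenase complex.

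Of 15 alveolar macrophage markers 14 passed the filter, with a summed level of 11393 to 11773 RPKM in naive, 7828 to 9074 at 2 h and 9606 to 11432 at 24 h. Single markers went both ways: 1 was higher and 4 lower at 2 h, and 4 were higher and 7 lower at 24 h, with log2 fold changes from -1.13 to 2.06 at 24 h. The summed level of 9 monocyte and interstitial macrophage markers was 8.28 to 12.0 RPKM in naive, 3.45 to 6.03 at 2 h and 4.25 to 10 at 24 h, and that of 10 lymphocyte markers 8.87 to 13.6, 3.14 to 7.01 and 0.996 to 3.27 RPKM. Of the first list 5 passed the filter, with 4 lower at each time and 1 higher at 24 h. Of the lymphocyte markers 3 passed it, all lower at each time. The summed level of 8 neutrophil markers was 26.4 to 34.9, 28.1 to 40.5 and 41.7 to 47.7 RPKM. In RPM, which scales the recovered reads to library size but not to gene length, the order was the reverse, from 88 to 104 in naive down to 55 to 66 at 24 h, and of the 4 tested 1 was higher and 1 lower at 24 h. The summed level of 12 epithelial, endothelial and red cell markers was 57.0 to 61.3, 48.2 to 67.9 and 23.9 to 33.6 RPKM. Of these 3 passed the filter, and at 24 h 1 was lower and 2 were not called. Against naive, 14.7% of all genes tested were higher and 22.0% lower at 2 h, and 25.3% and 20.6% at 24 h. The marker counts were not tested against these shares. A list of 20 cell cycle genes summed to 158 to 192 RPKM in naive, 123 to 148 at 2 h and 733 to 805 at 24 h. The part of these differences in the values of the ribosomal proteins was not tested.

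At 24 h most mitochondrial ribosomal protein genes stood above naive. Of the 76 tested, 57 were higher, 1 was lower and 18 did not pass (limma, adjusted p under 0.05), where 25.3% of all 11419 genes tested were higher and 20.6% lower. The median log2 fold change was 0.35 against 0.00 over all genes tested and 0.01 over 9636 protein-coding genes. In 54 of the 76 genes the lowest 24 h library exceeded the highest naive library, which held for 25.8% of all genes tested. In bulk RNA, fewer cells of a type and less RNA per cell cannot be told apart, here or below.

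Both subunits took part. In the large subunit 37 of 47 genes were higher, 0 lower and 10 did not pass, with a median of 0.37. For the lower side limma gave 0 also at an unadjusted p under 0.05, and voom gave 0. In the small subunit 20 of 29 were higher, 1 lower and 8 did not pass, with a median of 0.32. The medians differed by 0.04, and this difference between libraries of a group had an SD of 0.04. When Mrps30 and Mrps18a were counted with the large subunit and Mrps36 was left out, 38 of 49 large and 18 of 26 small subunit genes were higher. The shift was present in each library: the median over the members, relative to the naive mean, was between -0.01 and 0.03 in the naive libraries and 0.34, 0.46, 0.32 and 0.34 in the 24 h libraries. The summed level of the members was 784 to 813 RPKM in naive, 727 to 810 at 2 h and 1008 to 1137 at 24 h.

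**Figure D1:**
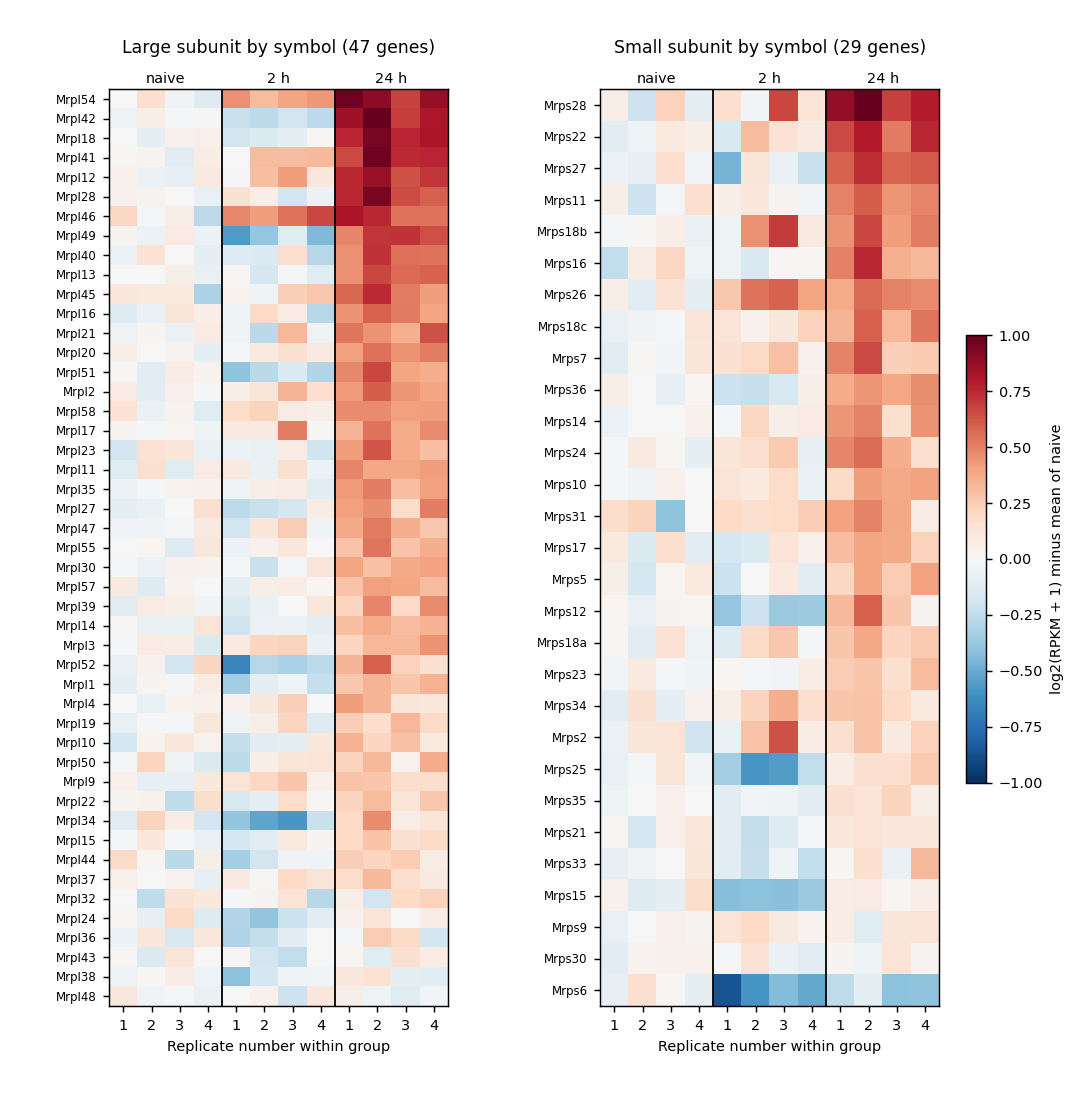
Level of each of the 76 tested genes in the 12 libraries (columns, by group and replicate number) as log2(RPKM + 1) minus the mean of the naive libraries, with red above and blue below that mean, large subunit on the left and small subunit on the right, ordered by the difference at 24 h. The 24 h columns are red for most genes, while the 2 h columns are mixed, with Mrps6 the bluest row.

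Among the large subunit genes the smallest p-values at 24 h belonged to Mrpl42, Mrpl18, Mrpl54, Mrpl41 and Mrpl13. Mrpl42, a protein found only in mitochondrial ribosomes, had 39.6, 43.0, 40.5 and 41.5 RPKM in the naive libraries, 35.2, 34.2, 35.8 and 34.2 at 2 h and 75, 83.1, 67.0 and 72.7 at 24 h. The groups did not overlap in any pair, with 2 h lowest and 24 h highest. The level at 24 h was 1.81 times the naive mean (41.2 ± 1.45 against 74.4 ± 6.69 RPKM, SD, n = 4 each), a log2 fold change of 0.84 ± 0.06 (SE, adjusted p = 5.74e-07). Mrpl18, which has a bacterial homologue and lies in the central protuberance, had 11.7, 10.8, 12.0 and 12.1 RPKM in naive, 10.1, 10.5, 10.8 and 11.8 at 2 h and 20.4, 23.4, 20.4 and 21.3 at 24 h. The 24 h libraries lay above all others, 1.83 times the naive mean (0.82 ± 0.06, SE, adjusted p = 8.63e-07), while naive and 2 h overlapped. Mrpl18 shares 141 exonic bases with Tcp1 on the other strand. Tcp1 had a mean of 15.3 RPKM in naive and 20.6 at 24 h (0.41, adjusted p = 0.000374).

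Mrpl54, another protein of mitochondrial ribosomes only, had 7.52, 8.56, 7.31 and 6.78 RPKM in naive, 10.7, 9.63, 10.2 and 10.5 at 2 h and 15.7, 14.8, 12.6 and 14.6 at 24 h. It rose in 2 steps that did not overlap, by log2 fold changes of 0.40 ± 0.08 at 2 h (adjusted p = 0.00192) and 0.85 ± 0.08 at 24 h (adjusted p = 3.48e-06) against naive, and by 0.45 ± 0.08 from 2 h to 24 h (SE, adjusted p = 0.000364). Mrpl41 rose 1.78-fold at 24 h (0.78, adjusted p = 1.99e-05) and Mrpl13 1.68-fold (0.57, adjusted p = 1.98e-05), both without overlap with naive. Mrpl13 shares 330 exonic bases with Mtbp on the other strand, a gene with a mean of 0.706 RPKM in naive and 1.79 at 24 h.

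In the small subunit the smallest p-values at 24 h were those of Mrps22, Mrps11, Mrps36, Mrps18c and Mrps27. Mrps22, found only in mitochondrial ribosomes, had 2.15, 2.27, 2.62 and 2.55 RPKM in naive, 2.06, 3.23, 2.75 and 2.61 at 2 h and 4.36, 4.87, 3.85 and 4.73 at 24 h. All 24 h libraries lay above the others, 1.86 times the naive mean (0.68 ± 0.10, SE, adjusted p = 0.000149), and naive and 2 h overlapped. Mrps27, a pentatricopeptide repeat protein, rose 1.62-fold (0.63, adjusted p = 0.000534) and Mrps11, of the platform where mRNA leaves, 1.61-fold (0.51, adjusted p = 0.000236). Mrps28 showed the highest log2 fold change of the small subunit, 0.88 ± 0.15 (SE, adjusted p = 0.00058). It was chosen after its values were seen, and its 24 h libraries had 16.9, 20.6, 14.6 and 15.7 RPKM against 7.41 to 10.4 in naive. Its 2 h replicate 3, at 14.4 RPKM, lay just under the lowest 24 h library.

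**Figure D2:**
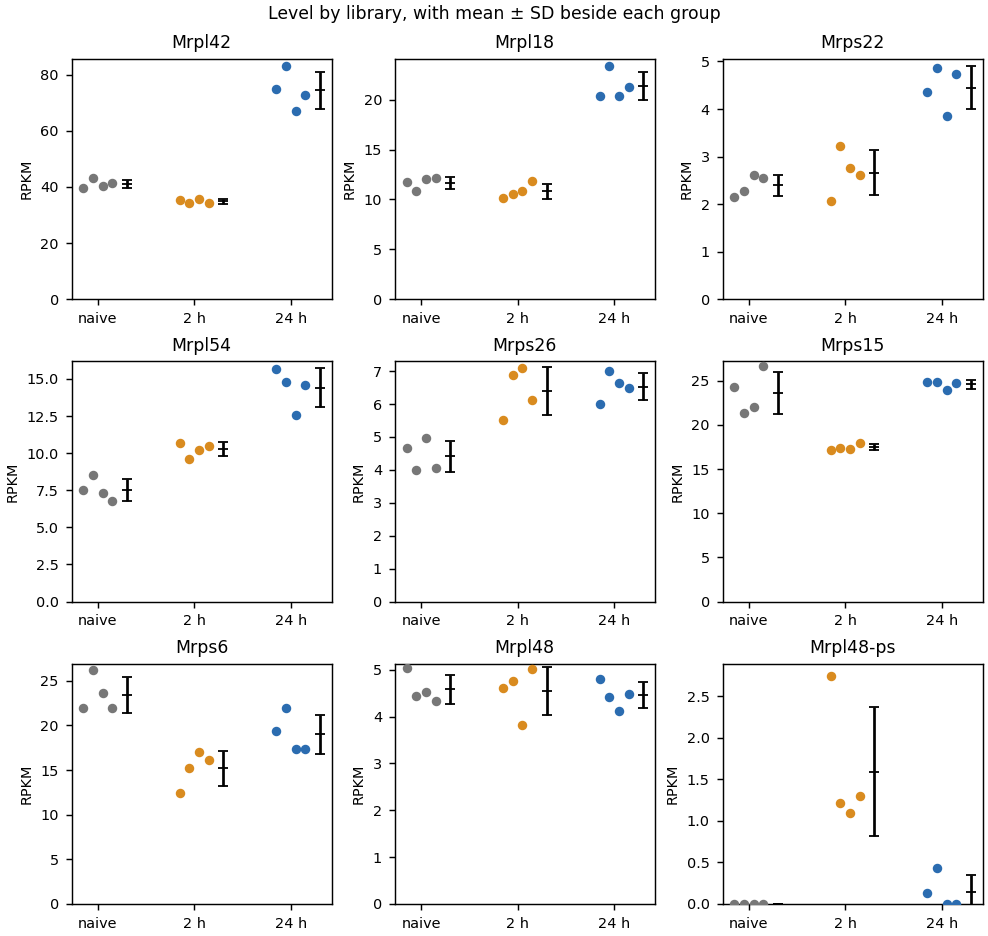
RPKM of 8 ribosomal protein genes and of the pseudogene Mrpl48-ps in each library (points) by group, with the mean ± SD of the 4 libraries as a bar beside the points; each panel starts at 0 and has its own scale. Mrpl42, Mrpl18 and Mrps22 are high at 24 h only, Mrps15 is low at 2 h only, Mrps6 is lower at both times, and the Mrpl48 groups overlap.

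Sites of the ribosome were represented as follows. At the stalk base, where the translation factors bind, Mrpl10, Mrpl11 and Mrpl12 were all higher at 24 h (3 of 3). Mrpl12, the protein of the mobile stalk, had 18.3, 17, 16.7 and 18.9 RPKM in naive, 17.6, 22.1, 24.0 and 19.1 at 2 h and 30.5, 33.1, 28.1 and 29.7 at 24 h. Only the 24 h libraries stood clear of the rest, 1.71 times the naive mean (0.74 ± 0.09, SE, adjusted p = 3.87e-05). Mrpl12 shares 200 exonic bases with Gm16755 on the other strand. Gm16755 had a mean of 17.4 RPKM in naive and 28.6 at 24 h (0.69, adjusted p = 0.000467). Reads of the shared bases cannot be told apart without the strand setting. Mrpl11 rose by 0.42 (adjusted p = 0.000869). Mrpl10, which carries the stalk, rose by 0.24 (adjusted p = 0.0355), a call lost in 10 of 25 other fits. Among these were the fits without naive replicate 1, 2 or 4 (0.18, 0.25 and 0.25) and without 24 h replicate 1, 2 or 3 (0.20, 0.24 and 0.22).

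Around the peptidyl transferase centre, where peptide bonds form, all 5 genes were higher: Mrpl2 by 0.47, Mrpl3 by 0.33, Mrpl4 by 0.25, Mrpl16 by 0.49 and Mrpl27 by 0.39 (adjusted p 0.000282 to 0.0189). The call of Mrpl4 was lost without naive replicate 2 (0.23) and without 24 h replicate 1 or 2 (0.19 and 0.22). Mrpl16 had 15.4 to 18.5 RPKM in naive, 13.7 to 19.6 at 2 h and 22.5 to 26.0 at 24 h, so that 2 h spanned the naive range and 24 h lay above it. Along the peptide exit tunnel 4 of 6 genes were higher, Mrpl17, Mrpl23, Mrpl45 and Mrpl47, by 0.38 to 0.56. Mrpl45, which ties the ribosome to the inner membrane, rose 1.53-fold (0.56 ± 0.11, SE, adjusted p = 0.00143). Mrpl22 had a log2 fold change of 0.23 (adjusted p = 0.0646) and Mrpl24 of 0.06 (adjusted p = 0.543).

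The central protuberance, which faces the small subunit and is rich in proteins of mitochondrial ribosomes only, had the widest range of these 5 sites, with log2 fold changes from -0.03 to 0.82 and 5 of 7 genes higher. Mrpl18, Mrpl46, Mrpl40, Mrpl55 and Mrpl52 rose, while Mrpl38 (0.01, adjusted p = 0.937) and Mrpl48 (-0.03, adjusted p = 0.735) did not pass. The rise of Mrpl52 (0.33, adjusted p = 0.0412) no longer passed under 9 of 25 alternatives, including the loss of naive replicate 1, 2 or 3 (0.31, 0.34 and 0.26) or of 24 h replicate 1 or 2 (0.33 and 0.24). In the small subunit, at the decoding site and the mRNA entry and exit, 5 of 6 genes were higher: Mrps5, Mrps7, Mrps11, Mrps12 and Mrps24, by 0.31 to 0.51. Mrps12 lost its call without naive replicate 2 (0.28). The sixth, Mrps2, which is at the mRNA exit, had 3.87, 4.50, 4.55 and 3.41 RPKM in naive and 4.64, 5.16, 4.39 and 4.95 at 24 h (0.19, adjusted p = 0.265).

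The 3 genes of the Mrps18 family, which are related to the bacterial protein S18, were all higher. Mrps18c, which keeps the bacterial position, rose by 0.45 ± 0.07 (adjusted p = 0.000351), Mrps18b by 0.51 ± 0.14 (adjusted p = 0.00904) and Mrps18a by 0.29 ± 0.09 (adjusted p = 0.0189, SE each). The last call was lost without naive replicate 2 and without 24 h replicate 2 (0.25 each). Mrps18b had a wide spread at 2 h, with 2.68, 4.22, 5.19 and 3.05 RPKM. Mrps36, the dehydrogenase component, rose by 0.41 (adjusted p = 0.000342). By the origin that the systematic names of ribosomal proteins give, 35 of 45 genes with a bacterial homologue were higher and 1 lower (median 0.37), and 21 of 30 found only in mitochondria were higher and 0 lower (median 0.34). For those 30 the lower side held 0 at an unadjusted p under 0.05 and 0 by voom. Over all genes tested 25.3% were higher and 20.6% lower at 24 h.

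Not every gene was called. Mrpl48, Mrpl38, Mrpl43, Mrps30, Mrps9, Mrpl24, Mrps15, Mrpl36 and Mrpl32 had log2 fold changes between -0.03 and 0.08 at 24 h, none of which passed. Mrpl36, Mrpl43, Mrpl32 and Mrps9 were chosen after their values were seen. Mrps30 had 16.7, 18.6, 18.7 and 18.7 RPKM in naive, 17.9, 20.2, 17.3 and 16.7 at 2 h and 18.5, 17.5, 20.1 and 18.5 at 24 h, and the 3 groups overlapped (0.04 ± 0.07 at 24 h, SE, adjusted p = 0.693). Mrpl48 had 5.03, 4.45, 4.53 and 4.33 RPKM in naive and 4.80, 4.42, 4.13 and 4.48 at 24 h, again with overlap. The SD of the log2 fold changes among members at 24 h was 0.23 in both subunits, against a median SE of 0.08.

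**Figure D3:**
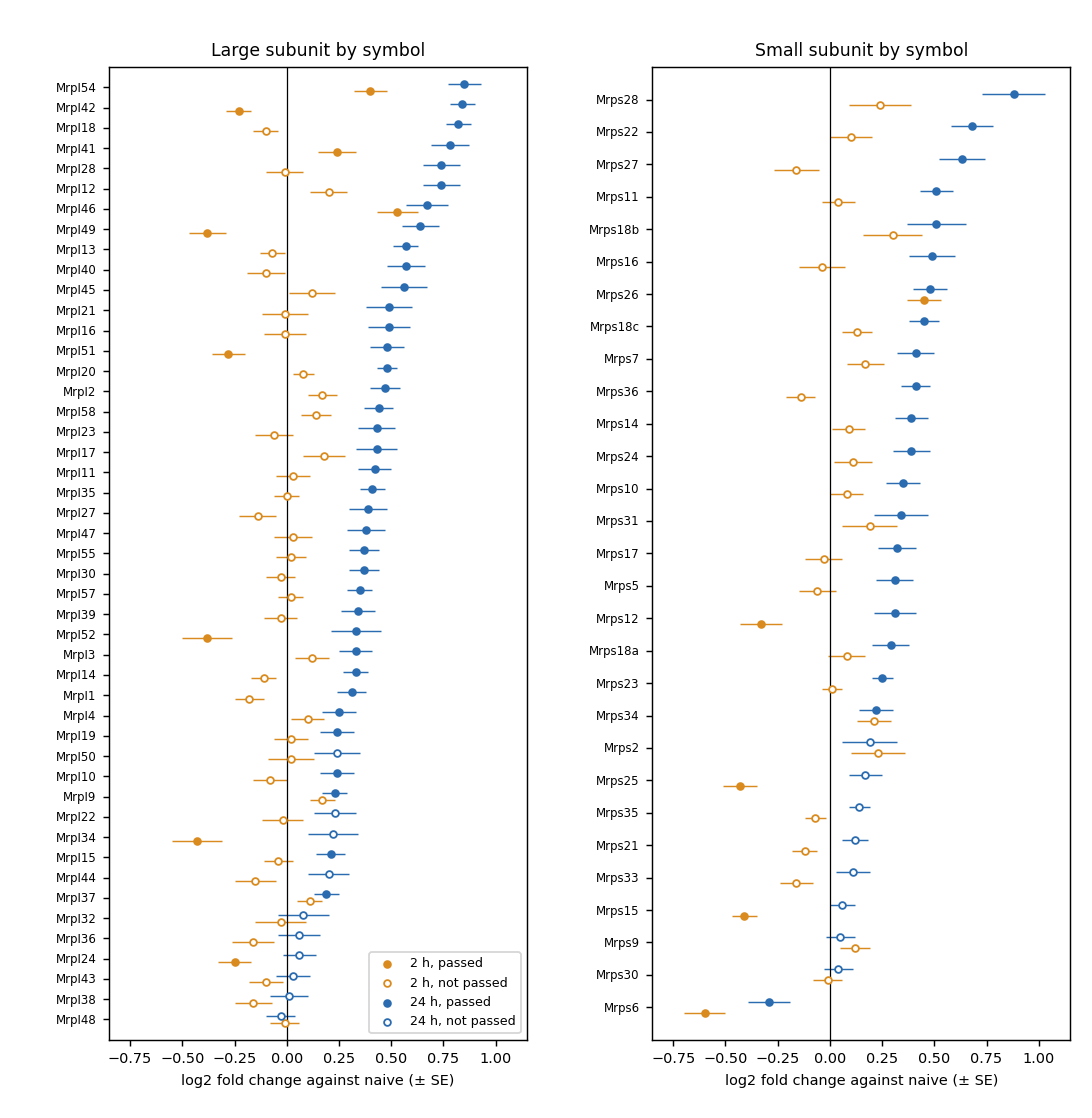
Log2 fold change against naive (x axis, points with ± SE) at 2 h (orange) and at 24 h (blue) for each tested gene, large subunit on the left and small subunit on the right; filled points passed at an adjusted p under 0.05. Most blue points lie to the right of 0, from -0.03 to 0.85 in the large subunit and from -0.29 to 0.88 in the small subunit, and most orange points are open and lie around 0.

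Mrps6, a bacterial-type protein of the small subunit that binds the central part of its rRNA, was the only member lower at 24 h. It had 22.0, 26.2, 23.6 and 21.9 RPKM in naive, 12.4, 15.2, 17 and 16.1 at 2 h and 19.4, 21.9, 17.3 and 17.4 at 24 h. All 2 h libraries lay below all naive ones (log2 fold change -0.60 ± 0.10, SE, adjusted p = 0.00103), and this call was kept in all 25 other fits. At 24 h, where the highest library touched the naive range, it was lower by a log2 fold change of -0.29 ± 0.10 (SE, adjusted p = 0.036). The 24 h call was lost without naive replicate 2 or 3 (-0.24 and -0.28), without 24 h replicate 1, 3 or 4 (-0.30, -0.25 and -0.25) and with no filter. From 2 h to 24 h it rose by 0.31 (adjusted p = 0.0231), a call lost without 2 h replicate 1 (0.22), without 24 h replicate 1 or 2 (0.30 and 0.24) and with median-ratio scaling (0.24). Slc5a3, a myo-inositol transporter that shares 159 exonic bases with Mrps6 on the same strand, had 3.70 to 5.26 RPKM in naive, 1.87 to 2.64 at 2 h and 1.70 to 3.54 at 24 h, and was lower at both times (-0.68 at each, adjusted p = 0.00587 and 0.00403). A larger overlap on the same strand, 305 exonic bases, is with Gm49711, a protein-coding gene whose level was not analysed here. Reads of the shared bases cannot be told apart.

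At 2 h the set as a whole had not moved. Of the 76 genes 4 were higher, 10 lower and 62 did not pass, where 14.7% of all genes tested were higher and 22.0% lower. The median was -0.01 against -0.04 over all genes. The large subunit gave 3 higher and 6 lower (median -0.01) and the small subunit 1 higher and 4 lower (median 0.04). With median-ratio scaling 8 members were higher and 9 lower, and of all called genes 50.3% were higher in place of 40.0%. In the 2 h libraries the median over the members was -0.05, 0.00, 0.09 and 0.00 relative to naive. Both shares of members were below those of all genes, and no test was made of that.

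The members that fell at 2 h came from both subunits. In the small subunit these were Mrps15, Mrps25, Mrps12 and Mrps6. Mrps15, which binds the small subunit rRNA, had 24.3, 21.4, 22.0 and 26.7 RPKM in naive, 17.2, 17.4, 17.3 and 18 at 2 h and 24.8, 24.9, 23.9 and 24.7 at 24 h. The 2 h libraries were tightly grouped below both other groups (-0.41 ± 0.06, SE, adjusted p = 0.000534), and the 24 h libraries were back within the naive range (0.06, adjusted p = 0.444). Mrps25, found only in mitochondria, had 7.63, 7.98, 8.85 and 7.89 RPKM in naive and 6.16, 5.05, 5.17 and 6.64 at 2 h, without overlap (-0.43 ± 0.08, SE, adjusted p = 0.00168). It shares 4590 of its 6576 exonic bases with Nr2c2, a nuclear receptor gene on the other strand, which also fell at 2 h (-0.50, adjusted p = 0.00923) and rose from 2 h to 24 h (0.40, adjusted p = 0.0177). Reads of the shared bases cannot be told apart without the strand setting. Mrps12, the protein of the decoding site, went from 7.51 ± 0.285 down to 5.78 ± 0.404 RPKM (SD, n = 4 each), a log2 fold change of -0.33 (adjusted p = 0.021), or -0.31 without 2 h replicate 1, where the call was lost.

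In the large subunit Mrpl49, Mrpl42, Mrpl34, Mrpl51, Mrpl24 and Mrpl52 fell. Mrpl49, found only in mitochondria, had 11.6, 10.9, 12.1 and 10.9 RPKM in naive, 7.34, 8.47, 10.4 and 8.10 at 2 h and 16.3, 19.3, 19.4 and 18.3 at 24 h. The 2 h libraries were the lowest and the 24 h libraries the highest, with no overlap of any 2 groups (-0.38 ± 0.09 at 2 h, adjusted p = 0.00687, and 0.64 ± 0.09 at 24 h, adjusted p = 0.000124, SE). Mrpl34, a small bacterial-type protein of the large subunit, had a log2 fold change of -0.43 (adjusted p = 0.0123). For Mrpl51 it was -0.28 (adjusted p = 0.0155) and for Mrpl42 -0.23 (adjusted p = 0.0101), or -0.24 by voom, where the adjusted p was 0.0503. Mrpl52 and Mrpl24 had log2 fold changes of -0.38 (adjusted p = 0.0265) and -0.25 (adjusted p = 0.026). The call of Mrpl52 was lost without naive replicate 2 or 4 (-0.37 and -0.31) or 2 h replicate 1 (-0.29), and that of Mrpl24 without naive replicate 1 or 3 (-0.25 and -0.19) or 2 h replicate 1 or 2 (-0.24 and -0.20).

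Those that rose at 2 h were Mrpl46, Mrpl54, Mrpl41 and Mrps26, all found only in mitochondrial ribosomes. Mrpl46, of the central protuberance, had 8.11, 6.78, 7.25 and 5.57 RPKM in naive, 9.99, 9.52, 10.5 and 11.5 at 2 h and 12.9, 12.3, 10.5 and 10.5 at 24 h. The naive libraries lay below both later groups, and those overlapped each other (0.53 ± 0.10 at 2 h, adjusted p = 0.00207, and 0.14 from 2 h to 24 h, adjusted p = 0.273, SE). Mrps26 had 4.67, 3.99, 4.96 and 4.05 RPKM in naive, 5.52, 6.88, 7.11 and 6.11 at 2 h and 6, 6.99, 6.63 and 6.49 at 24 h, the same arrangement (0.45 ± 0.08 at 2 h, SE, adjusted p = 0.0016). Mrpl41 (0.24, adjusted p = 0.0481) lost its call in 16 of 25 other fits. Leaving out any naive library (0.20 to 0.26), 2 h replicate 2, 3 or 4 (0.21 each) or 24 h replicate 1, 3 or 4 (0.24 each) was enough. The 45 genes with a bacterial homologue gave 0 higher and 5 lower at 2 h (3 higher at an unadjusted p under 0.05, 0 by voom), and the 30 found only in mitochondria 4 higher and 5 lower. That difference was not tested. The shares higher and lower were 0.0% and 11.1% for the first set and 13.3% and 16.7% for the second. Each was below that of all genes tested, 14.7% higher and 22.0% lower.

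From 2 h to 24 h 58 of 76 members were higher and 18 did not pass, where 30.9% of all genes tested were higher and 21.5% lower. The lower side held 0 members by limma, 0 at an unadjusted p under 0.05 and 0 by voom. The median was 0.34 against 0.05 over all genes. The large subunit gave 37 of 47 higher (median 0.37) and the small subunit 21 of 29 (median 0.28), a difference of 0.09 between the medians. In 49 genes all 24 h libraries lay above all 2 h libraries, against 27.5% of all genes. Mrpl42 showed the highest difference, 1.07 ± 0.06 (SE, adjusted p = 4.59e-08), or 2.14 times the 2 h mean, followed by Mrpl49 with 1.02 ± 0.09 (SE, adjusted p = 2.24e-06) and Mrpl18 with 0.92 ± 0.06 (SE, adjusted p = 2.03e-07). In the small subunit Mrps27 was higher by 0.79, Mrps12 by 0.64 and Mrps25 by 0.60. The comparisons with naive and with 2 h share libraries, so their values are set side by side and not counted as separate support.

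Other parts of the mitochondrial translation system were read from lists. Of 27 tested assembly and accessory proteins 5 were higher and 3 lower at 2 h, and 12 were higher and 2 lower at 24 h (median 0.24). Over all genes tested 14.7% were higher and 22.0% lower at 2 h, and 25.3% and 20.6% at 24 h, against naive. Dap3, a GTP-binding small subunit protein whose symbol falls outside the rule, rose 1.44-fold at 24 h (0.41, adjusted p = 0.000277), and Tfb1m, the methyltransferase that modifies the small subunit rRNA, 1.78-fold (0.72, adjusted p = 0.0055). In the other direction, Rpusd3, a mitochondrial pseudouridine synthase, had 1.96, 2.12, 1.77 and 1.79 RPKM in naive and 0.968, 0.996, 0.975 and 0.733 at 24 h, without overlap (-0.60, adjusted p = 7.72e-05). Ddx28, a helicase of large subunit assembly, rose at 2 h (0.41, adjusted p = 0.000607) and was below naive at 24 h (-0.19, adjusted p = 0.0315).

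Of 13 translation factors 0 were higher and 3 lower at 2 h by limma (1 higher at an unadjusted p under 0.05, 0 by voom), with a median of -0.16. The share lower, 23.1%, was near the 22.0% of all genes tested, of which 14.7% were higher. At 24 h 5 were higher than naive and 0 lower (median 0.30, 0 lower at an unadjusted p under 0.05 and by voom), and 11 of 13 were higher than at 2 h. Over all genes tested 25.3% were higher and 20.6% lower than naive, and 30.9% were higher than at 2 h. The elongation factors Tufm and Gfm1 rose by 0.44 and 0.50 at 24 h, and the recycling factor Gfm2 by 0.39. The gene 2810006K23Rik, the mouse counterpart of a release factor that rescues stalled ribosomes, had 3.19, 4.03, 3.23 and 4.10 RPKM in naive, 1.38, 1.49, 2.04 and 2.46 at 2 h and 5.26, 5.12, 5 and 4.63 at 24 h. It was lowest at 2 h and highest at 24 h with no overlap of any 2 groups (-0.72 and 0.38 against naive, adjusted p = 0.000762 and 0.0189).

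Of 19 mitochondrial aminoacyl-tRNA synthetases and related enzymes, which charge tRNAs, 0 were higher and 5 lower at 2 h (0 higher at an unadjusted p under 0.05 and by voom), and 8 were higher and 0 lower at 24 h (median 0.17). The share of the synthetases lower at 2 h was 26.3%. Of 16 genes of mitochondrial transcription and RNA handling 1 was higher and 1 lower at 2 h, and 7 were higher and 0 lower at 24 h (median 0.13). For both lists, the shares over all genes tested were 14.7% higher and 22.0% lower at 2 h. At 24 h they were 25.3% and 20.6%. Tfam, which packs and transcribes mitochondrial DNA, rose by 0.33 (adjusted p = 0.00205) and Lrpprc, which stabilises its mRNAs, by 0.30 (adjusted p = 0.00939). Pnpt1, an RNA-degrading enzyme, fell at 2 h (-0.44, adjusted p = 0.00107) and was above naive at 24 h (0.35, adjusted p = 0.00264).

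Of the 13 protein-coding genes of the mitochondrial genome 4 were higher at 2 h and 0 lower (median 0.27), 4 were higher at 24 h and 0 lower (median 0.11), and from 2 h to 24 h 0 were higher and 1 lower (median -0.07). Over all genes tested 14.7% were higher and 22.0% lower at 2 h, and 25.3% and 20.6% at 24 h, against naive. Between 2 h and 24 h 30.9% were higher and 21.5% lower. The difference from the ribosomal proteins was not tested. The zeros were also 0 at an unadjusted p under 0.05 and by voom. mt-Nd1, a subunit of complex I, had 1200, 1250, 1357 and 1481 RPKM in naive, 1807, 1782, 1949 and 1830 at 2 h and 1476, 1715, 1658 and 1834 at 24 h. The 2 h libraries were above all naive ones (0.48, adjusted p = 0.000565), and 24 h overlapped with both. mt-Rnr2, the rRNA of the large subunit, had 257 to 408 RPKM in naive, 370 to 518 at 2 h and 294 to 414 at 24 h (0.57 at 2 h, adjusted p = 0.0167), and mt-Rnr1, that of the small subunit, did not pass in any comparison. Some of the 13 genes were listed far below the rest, such as mt-Co3, chosen after its values were seen, with a mean of 1.87 RPKM in naive. The libraries were made from polyadenylated RNA, so the rRNA values are not a measure of ribosomes.

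The nuclear-encoded subunits of oxidative phosphorylation gave 69 of 80 higher and 3 lower at 24 h (median 0.42) and 3 higher and 6 lower at 2 h (median -0.02). The cytosolic ribosomal proteins gave 35 of 79 higher and 5 lower at 24 h (median 0.13). The 20 cell cycle genes were all higher at 24 h (median 2.02), and 14 of them were lower at 2 h. Over all genes tested 25.3% were higher and 20.6% lower at 24 h, and 14.7% and 22.0% at 2 h, against naive. Among 13 tested regulators of mitochondrial biogenesis 6 were higher and 1 lower at 24 h (median 0.08). Lonp1, a matrix protease, rose by 0.37 (adjusted p = 5.44e-05), while Myc, a transcription factor of growth, went from 5.58 ± 0.764 down to 3.25 ± 0.285 RPKM (SD, n = 4 each), a log2 fold change of -0.63 (adjusted p = 0.000869). Yy1 and Gabpa, transcription factors with known sites at such promoters, fell at 2 h (-0.43 and -0.22, adjusted p = 0.00163 and 0.0111) and were near naive at 24 h (-0.03 and 0.08, adjusted p = 0.775 and 0.258).

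**Figure D4:**
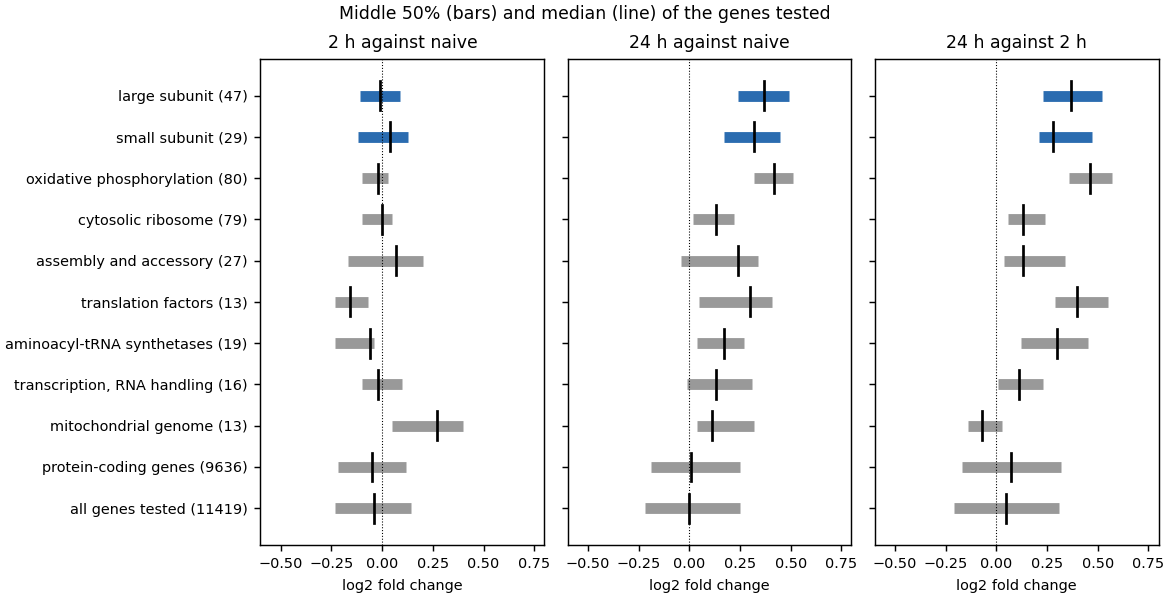
Log2 fold changes by gene group for the 3 comparisons (panels): bars run from the lower to the upper quartile of the tested genes of a group and the black line is the median, with the number of genes tested in brackets; blue bars are the 2 subunits of the mitochondrial ribosome. At 24 h against naive the subunit medians are 0.37 and 0.32, between oxidative phosphorylation (0.42) and the cytosolic ribosome (0.13), and the genes of the mitochondrial genome have medians of 0.27 at 2 h and 0.11 at 24 h.

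Because most members moved together at 24 h, their promoters are of interest, and the windows of 250 bases before to 50 after the start were taken from RefSeq (GRCm38.p6). They were found for 68 of the 77 members, with 74 windows. The core of ETS family sites (CCGGAAG, either strand), bound by factors such as Gabpa, was in 33.8% of the member windows, in 19.6% of 10125 windows of tested genes and in 8.86% of all 32851 windows. The core of YY1 sites (AAGATGGC) was in 16.2%, 5.09% and 2.75%, and that of NRF1 sites (GCGCATGC), a regulator of nuclear genes for mitochondria, in 9.46%, 5.73% and 2.71%. For the E-box (CACGTG) the shares were 9.46%, 10.6% and 7.15%, and for the TATA motif (TATAAA) 6.76%, 6.56% and 13.6%. Of 36 tested members with any of the first 3 cores 28 were higher at 24 h (median 0.37), and of 31 with none 22 were (median 0.37). Of all 76 tested members 57 were higher at 24 h, and of all genes tested 25.3%. These 5 motifs were picked from 11 of 5 to 8 letters after their shares had been seen, and the 3 genes printed next were picked likewise. Longer NRF1, YY1, sterol response and kappa B patterns were also looked at once by hand and are not given. A match is a description of letters.

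The 250 bases before the RefSeq start are shown for the following genes, with the cores in capitals. Mrpl18 has an ETS core far upstream of that start. Mrpl17, higher by 0.43 at 24 h, has an ETS core upstream and an NRF1 core just before the RefSeq start. Mrps6, the gene that fell, has none of the 3 cores there. The windows lie at chr17:12916092-12916341 (minus strand), chr7:105811088-105811337 (minus strand) and chr16:92058086-92058335 (plus strand). In GENCODE vM21 Mrpl18 spans 12911349 to 12916345, so its whole window lies inside the gene. Its core is thus not upstream of the start in that annotation. Mrpl17 spans 105803206 to 105811099 there, so the NRF1 core at the end of its window lies inside the gene. Mrps6 starts at 92058270 there, so the end of its window also lies inside the gene.
Mrpl18: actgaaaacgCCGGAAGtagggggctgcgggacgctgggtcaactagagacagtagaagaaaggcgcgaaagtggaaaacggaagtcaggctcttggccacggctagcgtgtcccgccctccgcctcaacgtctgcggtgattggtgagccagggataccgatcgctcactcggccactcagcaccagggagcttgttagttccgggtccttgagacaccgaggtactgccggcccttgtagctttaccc
Mrpl17: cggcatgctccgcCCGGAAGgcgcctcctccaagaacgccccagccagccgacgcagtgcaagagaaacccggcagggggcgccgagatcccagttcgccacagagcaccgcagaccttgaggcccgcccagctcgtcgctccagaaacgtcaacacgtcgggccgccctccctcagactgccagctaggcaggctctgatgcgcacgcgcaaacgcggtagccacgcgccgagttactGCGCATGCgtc
Mrps6: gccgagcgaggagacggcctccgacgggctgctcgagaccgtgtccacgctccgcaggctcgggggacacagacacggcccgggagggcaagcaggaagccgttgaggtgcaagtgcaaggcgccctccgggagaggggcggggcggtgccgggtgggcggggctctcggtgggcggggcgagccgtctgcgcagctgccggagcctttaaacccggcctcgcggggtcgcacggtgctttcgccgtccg

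YY1 cores lay close behind the RefSeq start in Mrpl42, Mrpl49 and Mrpl35, all higher at 24 h, and upstream of it on the other strand in Mrps11. Of the 12 members with this core 10 were higher at 24 h, while Mrpl32 (0.08) and Mrpl36 (0.06) did not pass. Mrpl35 was chosen for its motif after its values were seen. In GENCODE vM21 Mrpl35 spans 71812997 to 71826969, so its stretch lies well inside the gene there. Stretches of 30 bases around the core are shown, with the core in capitals, from chr10:95501904-95501933 (minus strand), chr19:6057721-6057750 (minus strand), chr6:71823743-71823772 (minus strand) and chr7:78783013-78783042 (plus strand).
Mrpl42: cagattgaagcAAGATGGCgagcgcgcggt
Mrpl49: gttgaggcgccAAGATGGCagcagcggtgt
Mrpl35: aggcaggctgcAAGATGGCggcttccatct
Mrps11: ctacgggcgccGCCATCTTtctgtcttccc

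Many of these genes have close neighbours. In 23 cases another protein-coding gene starts within 1000 bases on the other strand in the opposite direction. Of the 19 such neighbours tested, 8 were higher and 3 lower at 24 h, with a median of 0.12. Over all genes tested 25.3% were higher and 20.6% lower. Ncapd2, a condensin subunit beside Mrpl51, rose by 1.86 (adjusted p = 5.05e-08) and Ska3, a spindle protein beside Mrpl57, by 1.77 (adjusted p = 5.31e-07), where Mrpl51 and Mrpl57 rose by 0.48 and 0.35. Ndufs6, of complex I, rose by 0.57 (adjusted p = 6.07e-05) beside Mrpl36, which had 0.06 (adjusted p = 0.659). Fau, a cytosolic ribosomal protein gene, had -0.14 (adjusted p = 0.147) beside Mrpl49, which rose. These pairs were chosen after their values were seen.

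Exons of 32 members overlap those of another gene, and whether the reads were counted by strand is not given in the sources used here. Of the 31 tested members with such an overlap 23 were higher at 24 h and 1 lower (median 0.39). Of the 45 without, 34 were higher and 0 lower (median 0.34), with 0 lower also at an unadjusted p under 0.05 and by voom. For all 76 tested members the counts were 57 and 1, and over all genes tested the shares were 25.3% and 20.6%. Mrpl46 and Mrps11 share 173 exonic bases on opposite strands of chromosome 7, and at 2 h Mrpl46 rose while Mrps11 had a log2 fold change of 0.04 (adjusted p = 0.696). Near-identical processed copies are another source of uncertainty: 37 annotated pseudogenes in the table were at least 90% identical over at least 200 bases to 21 of the members. Of these, 17 were at 0 in every library, and Mrpl48-ps was the only 1 to reach 1 RPKM.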

How the data were processed

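The table the authors deposited holds RPKM for each Ensembl gene in each library. The submitters' processing notes name TopHat2, HTSeq and bcl2fastq, and the build mm10. Their versions, the annotation, the gene lengths and the strand setting were not given in the sources used here. Symbols, types and positions came from GENCODE vM21 on the same assembly. The implied gene length was 0.15 to 3.83 times the annotated exon length among members, so levels of different genes are not compared.

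In R 4.3.3, limma 3.58.1 with a variance trend took log2(RPKM + 1) of the 12 libraries together, for the 11419 genes with at least 1 RPKM in at least 4 libraries. Tests were two-sided, with Benjamini-Hochberg adjustment over all genes tested and a threshold of 0.05. Log2 fold changes on this scale understate the change of low genes, and folds are ratios of mean RPKM. Read numbers, whole to within 0.02 of a read, were derived from the steps of the RPKM values for 100% of tested genes, 98.82 to 99.0% of each library total, and limma's voom was run on them as another setting, calling 2915 genes higher and 2491 lower at 24 h against naive. The limma fit of 24 h against naive was tried on simulated reads, and the derivation of read numbers was not. Copies were searched with BLAST 2.17.0.

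The members, lists, subunit and site assignments were chosen with earlier results of these data known. Named were, per comparison and subunit, up to 5 rising and 5 falling members with the smallest p, those called against the majority, those that failed the filter, members of 5 sites, Mrps18a, Mrps18b, Mrps18c, Mrps30 and Mrps36, and up to 4 genes of each list. The fits were repeated with 25 other settings and the subunits were also assigned by structure. Motifs were searched as letters in RefSeq promoter windows.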

Additional observations from a re-analysis of the deposited data

Results flagged for a closer look

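Mrpl48-ps, a pseudogene on chromosome 4 (88599175 to 88599810, mm10) 98.1% identical to Mrpl48 over 636 bases, was outside the members and had reads at 2 h. It was at 0 in all 4 naive libraries, at 2.75, 1.22, 1.10 and 1.30 RPKM at 2 h (mean 1.59) and at 0.131, 0.435, 0 and 0 RPKM at 24 h. It had at most 18 reads in a library. It passed the filter on low values through the 2 h group alone, so its separation from the other groups was fixed by the filter and no test of it is given. Mrpl48 itself had 4.6, 4.76, 3.83 and 5.02 RPKM at 2 h, overlapping its naive range. H2-Ea-ps, chosen after its values were seen, an MHC class II gene listed as a pseudogene in the B6 reference, had the same order of groups, with 0.046 ± 0.0919 RPKM in naive, 23.1 ± 3.19 at 2 h and 3.37 ± 2.06 at 24 h (SD, n = 4 each). Whether the same difference between the libraries lies behind both was not tested.

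Some members were below naive at 2 h and above naive at 24 h, and the 24 h against 2 h comparison passed for each: Mrpl42 with a log2 difference of 1.07 (-0.23 at 2 h and 0.84 at 24 h against naive), Mrpl49 with 1.02 (-0.38 and 0.64), Mrpl51 with 0.76 (-0.28 and 0.48), Mrpl52 with 0.71 (-0.38 and 0.33) and Mrps12 with 0.64 (-0.33 and 0.31). These comparisons share libraries.

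In 6 of 138 groups of 4 libraries of the named members 1 library stood apart from the other 3, where chance gives about 5%. At 2 h, Mrpl17 was 7.83 RPKM in replicate 3 (others 5.22 to 5.59) and Mrpl41 was 13.5 in replicate 1 (others 16.9 to 17.1). In naive, Mrpl45 was 6.10 in replicate 4 (others 8.45 to 8.55), Mrps12 7.08 in replicate 2 (others 7.64 to 7.67) and Mrps30 16.7 in replicate 1 (others 18.6 to 18.7). At 24 h, Mrps15 was 23.9 in replicate 3 (others 24.7 to 24.9).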

How the results depend on the processing

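Leaving out 1 library at a time, the large subunit genes higher at 24 h against naive numbered 32 to 38 and the small subunit genes 17 to 21, and against 2 h they numbered 33 to 38 and 17 to 23. Over the other settings the ranges were 30 to 39, 14 to 21, 30 to 37 and 15 to 22, with the lowest counts at the filter of 5 RPKM, where fewer genes were tested. At 2 h the counts were small: higher large subunit genes numbered 6 with median-ratio scaling and 5 with library weights in place of 3, and higher small subunit genes 2 with median-ratio scaling, 2 with quantile normalisation and 3 with library weights in place of 1 (1 to 3 with a library left out). Lower genes at 2 h numbered 4 to 7 in the large and 3 to 5 in the small subunit over all settings. The single lower gene at 24 h, Mrps6, was lost with no filter (0) and in 5 of 12 fits without 1 library (0 to 1). The large minus small median at 2 h was -0.05, with a range of -0.10 (voom) to -0.02 (filter of 5 RPKM) over other settings and of -0.09 (without naive replicate 1) to -0.03 (without 2 h replicate 1) with a library left out. At 24 h against naive it was 0.01 (without 24 h replicate 4) to 0.09 (without naive replicate 2). The cause of these moves was not tested. Of 3348 values of 46 named members under other settings, 3201 kept their side of the threshold, 130 were no longer called, 17 were newly called and 0 changed direction with a call. A change of direction with a call in neither fit was counted among the 3201.

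The replicate numbers are not known to pair libraries. Same-numbered libraries deviated with correlations of -0.04 to 0.05, and 7 of 24 best matches had the same number. With the number as a replicate block 35 large and 18 small subunit genes were higher at 24 h against naive and 34 and 20 against 2 h. Protein-level changes and ribosome numbers were not measured, and depth limits most the members with few reads, such as Mrps28 with 39 in its lowest library.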
